A study of Mus musculus with 157 samples.

Results

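The genes described are 10 genes that mark mast cells and basophils: Fcer1a, Ms4a2, Cd200r3, Cpa3, Mcpt8, Prss34, Gzmb, Cma1, Hdc and Il4. They were taken by symbol from every deposited table of a mouse series on haematopoietic cell types, as 10 of 36102 gene symbols in its count tables. The list was chosen by the normalised read counts of several of these genes in Mettl3 knockout against wild-type input libraries, so their values in that contrast are given below as a description with no test. The series holds 157 samples. Mettl3 -/- cells of 7 types, namely CMP, GMP, MEP, MkP, MPP, LT.HSC and ST.HSC, were profiled beside wild-type cells of the same types, with 2 input and 2 IP libraries per genotype and type. In the IP libraries, RNA was pulled down with an antibody against N6-methyladenosine (m6A), the methyl mark that the Mettl3 enzyme writes. Igf2bp2 -/- LT.HSC, which lack an m6A reader, gave 2 libraries beside 2 of wild-type LT.HSC. A wild-type atlas has 2 input and 2 IP libraries in each of 16 cell types, all untreated, and wild-type cells of 6 types were labelled with 4-thiouridine for SLAM-seq, in which new RNA shows T-to-C changes. Wild-type LT.HSC and MkP were also labelled for 24 h and then chased with unlabelled uridine for 7 times of 0.5 to 24 h. The labels list 2 samples per time for LT.HSC and a single one for MkP, and the authors give 1 value per time, named an average. The sources used here do not say how the knockout alleles were made, in which cells they act or how old the mice were. The labels do not tell whether replicates are separate animals, and p-values then measure no more than the spread among the libraries at hand, possibly a technical one.

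Mast cells and basophils carry the high-affinity receptor for IgE on their surface and release histamine and proteases from granules when antigen crosslinks it. The receptor is built from the IgE-binding alpha chain (Fcer1a), the signal-amplifying beta chain (Ms4a2) and the common gamma chain (Fcer1g). Both lineages arise in the bone marrow from progenitors near the common myeloid and granulocyte monocyte progenitors, and GATA factors drive many of their genes. Among the members, Cd200r3 encodes an activating surface receptor of both cell types. Cpa3 is the mast cell carboxypeptidase, Mcpt8 and Prss34 are serine proteases of mouse basophils, and Cma1 is a mast cell chymase. Gzmb, granzyme B, is best known from cytotoxic lymphocytes and is also made by mouse mast cells. Hdc is the histamine-forming enzyme histidine decarboxylase, and Il4 encodes the cytokine interleukin 4.

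In the RefSeq annotation of GRCm38.p6, Fcer1a lies at chr1:173221269-173227232, Ms4a2 at chr19:11615517-11623790, Cd200r3 at chr16:44943596-45058365 and Cpa3 at chr3:20215616-20242209. Prss34 lies at chr17:25298394-25300168, Hdc at chr2:126593659-126624025 and Il4 at chr11:53612460-53618665. The other serine proteases are neighbours on chromosome 14, Cma1 at chr14:55941451-55944675, Mcpt8 at chr14:56082163-56085499 and Gzmb at chr14:56258836-56262334. The 250 bases before the start of 6 members are shown because these 6 genes had the most alike levels across the atlas, as described below. Sequences are from the RefSeq promoter table (GRCm38.p6), 5′ to 3′ on the strand of the gene, from chr1:173227230-173227479 (minus strand), chr19:11623720-11623969 (minus), chr16:44943428-44943677 (plus), chr3:20242182-20242431 (minus), chr17:25298144-25298393 (plus) and chr14:56085198-56085447 (minus). Of the windows shown, that of Mcpt8 lies wholly inside the span that RefSeq gives the gene. Those of Cd200r3, Ms4a2, Cpa3 and Fcer1a lie partly inside theirs. Capitals mark the letters AGATAA, the core bound by GATA factors, or TTATCT where it reads on the other strand, and CAGCTG, an E-box.
Fcer1a: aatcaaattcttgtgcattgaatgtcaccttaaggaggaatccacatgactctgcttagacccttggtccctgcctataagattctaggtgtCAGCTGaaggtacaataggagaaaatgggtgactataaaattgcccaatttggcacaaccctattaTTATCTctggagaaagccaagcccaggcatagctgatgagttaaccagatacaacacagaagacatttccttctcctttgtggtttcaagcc
Ms4a2: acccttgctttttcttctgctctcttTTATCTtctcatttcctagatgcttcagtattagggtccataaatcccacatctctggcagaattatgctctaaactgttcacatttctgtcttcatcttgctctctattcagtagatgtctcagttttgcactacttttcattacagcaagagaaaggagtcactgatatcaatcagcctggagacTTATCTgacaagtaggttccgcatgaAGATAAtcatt
Cd200r3: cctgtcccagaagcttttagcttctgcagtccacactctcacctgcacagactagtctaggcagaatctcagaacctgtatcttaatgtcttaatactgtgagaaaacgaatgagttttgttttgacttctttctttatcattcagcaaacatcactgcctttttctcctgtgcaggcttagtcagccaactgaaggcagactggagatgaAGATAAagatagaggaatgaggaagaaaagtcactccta
Cpa3: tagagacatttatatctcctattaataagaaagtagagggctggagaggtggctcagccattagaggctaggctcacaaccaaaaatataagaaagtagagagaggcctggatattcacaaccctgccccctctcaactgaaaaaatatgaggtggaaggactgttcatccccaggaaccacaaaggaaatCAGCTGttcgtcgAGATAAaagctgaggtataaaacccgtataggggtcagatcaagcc
Prss34: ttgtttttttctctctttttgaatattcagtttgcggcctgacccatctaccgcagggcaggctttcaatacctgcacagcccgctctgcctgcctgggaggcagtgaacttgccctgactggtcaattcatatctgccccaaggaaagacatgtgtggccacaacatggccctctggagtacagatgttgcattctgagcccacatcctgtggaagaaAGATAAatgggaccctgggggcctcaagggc
Mcpt8: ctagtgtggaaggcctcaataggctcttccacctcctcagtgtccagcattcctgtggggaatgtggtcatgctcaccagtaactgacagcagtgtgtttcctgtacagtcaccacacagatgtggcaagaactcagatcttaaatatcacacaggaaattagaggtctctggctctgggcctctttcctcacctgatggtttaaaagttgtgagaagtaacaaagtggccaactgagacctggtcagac
AGATAA stood on either strand in these 250 bases in 5 of the 10 members, Fcer1a, Ms4a2, Cd200r3, Cpa3 and Prss34, and in 9.99% of 32851 windows of the table. In Cpa3, Cd200r3 and Prss34 its first base lay 46, 39 and 31 bases before the start. Ms4a2 held it 3 times, 11, 37 and 224 bases before the start. The Cd200r3 match and the Ms4a2 matches at 11 and 37 bases lie inside the spans that RefSeq gives these genes. CAGCTG stood in Fcer1a and Cpa3, and in 13% of all windows, and in Cpa3 it lay 59 bases before the start, next to the AGATAA. Neither letter string was in the windows of Mcpt8, Gzmb, Hdc, Il4 and Cma1. The 2 strings do not overlap in these windows, and a match is a description of the letters only.

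Total reads per library, in M, were 3.42 to 20.2 in the Mettl3 inputs (median 10.4), 0.819 to 22.9 in the Mettl3 IP (13.8), 4.68 to 20.0 in the Igf2bp2 set (5.71), 8.23 to 21.5 in the atlas inputs (14.5) and 10.8 to 24.6 in the atlas IP (16.9). Reads of the targeted genes did not separate the genotypes. Mettl3 had 30.3 to 99.4 RPM (reads scaled to the library's total) in the 14 inputs labelled Mettl3 knockout and 10.2 to 586 in those labelled wild type, and Igf2bp2 had 13.03 and 12.5 against 7.11 and 53.5. The sources used here do not say which part of each gene is deleted, so these reads check nothing about the labels, and knockout and wild type below mean the labels. Some atlas libraries went against their names. Those labelled CD4 had 1127 and 1145 RPM of Cd8a and 0.729 and 1.31 of Cd4, and those labelled CD8 had 129 and 130 of Cd4 and 6.87 and 2.72 of Cd8a. Those labelled Monocyte did so in part. They had 253686 and 259326 RPM over 9 neutrophil markers, above the 108249 to 111273 of those labelled Neutrophil, with Csf1r at 9.10 and 4.79. Over 8 monocyte markers they had 143392 to 156055, also above those labelled Neutrophil (71770 to 72226), with Ly6c2 at 2489 and 2221. The marker genes of this check were chosen after their values were seen.

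The atlas inputs asked where in haematopoiesis the members are expressed. All 10 passed the F test over the 16 cell types, with the highest adjusted p, 0.000332 (limma), for Cma1, where 92.8% of all genes tested also passed. The values are the authors' normalised read counts, and levels are not compared between genes because they are not scaled by gene length. In such mixed populations, fewer cells of a type and less RNA per cell cannot be told apart.

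Among the receptor genes, Fcer1a was highest in CLP, the common lymphoid progenitor, with normalised read counts of 2896 and 919. Monocyte (271 and 601), MkP (271 and 398) and GMP (387 and 261) followed with overlapping values, then LMPP (242 and 44.4), CMP (141 and 90.2) and MPP (126 and 61.7). It was nearly unread in MEP (1.06 and 2.10), ST.HSC (1.03 and 1.84) and LT.HSC (0.461 and 0.412). The CLP pair stood apart from the next type. Ms4a2 was read at 774 and 179 in CLP and at 461 and 371 in MkP, and these pairs overlapped each other and stood above the 133 and 97.3 of CMP. It was listed at 4.78 and 0.525 in MEP and at 0.825 or less in LT.HSC and ST.HSC. Cd200r3 had 1858 and 591 in CLP, apart from the 207 and 274 of MkP, and 12.5 and 12.2 in CMP. Its lowest pair was MEP, with 1.59 and 3.68.

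Of the protease genes, Cpa3, Mcpt8 and Prss34 were led by CLP or Monocyte as well. Cpa3 was spread widest: CLP (6757 and 2270), MkP (3337 and 4507), GMP (4164 and 1962), CMP (4023 and 1894), Monocyte (2143 and 3604), LMPP (2620 and 686) and MPP (1134 and 331) formed a chain in which each type overlapped the one after it, and MPP stood apart from the next, Erythroid. MEP had 123 and 57.8 of it, LT.HSC 171 and 30.1. Mcpt8 had 73213 and 23142 in CLP, 21156 and 37367 in Monocyte, 7254 and 13456 in MkP, 1193 and 728 in CMP, and 5.84 and 1.58 in MEP. Prss34 had 193557 and 327551 in Monocyte and 297198 and 66458 in CLP, which overlapped. MkP followed with 39548 and 62164 and GMP with 33789 and 15500, each apart from the type above it. In CMP it had 76.5 and 46.4, below DC and above ST.HSC in the order of means, while MEP stood last with 3.72 and 2.63. Between neighbours in the order of Prss34, 8 pairs of types stood apart and 7 overlapped.

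Gzmb and Cma1 followed other cells. Gzmb was highest in DC (363 and 653), in the libraries labelled CD4 (504 and 366) and in those labelled CD8 (275 and 363). CMP came next with 94.0 and 75.4, apart from both neighbours, and GMP had 19.6 and 11.01. In LT.HSC it was listed at 0 in both libraries, and in MEP at 0 and 1.58. Cma1 had 94.8 and 182 in DC and stood at 23.1 or less in every other library, with 0 in both libraries of LT.HSC, MEP and MkP and of those labelled CD8. Of the mediator genes, Hdc had 45816 and 38626 in Monocyte, 10210 and 10985 in Neutrophil, 11386 and 8711 in GMP, 4689 and 3482 in MkP and 938 and 1520 in CMP. Its lowest types were MEP (34.5 and 20.0) and LT.HSC (18.9 and 22.3), with 9 of 15 neighbouring pairs apart. Il4 was low throughout and highest in LT.HSC (46.6 and 91.1), the libraries labelled CD8 (50.1 and 79.7) and CLP (78.7 and 10.8), which all overlapped. Monocyte was listed at 0 in both. Only 1 of its 15 neighbouring pairs stood apart.

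**Figure D1:**
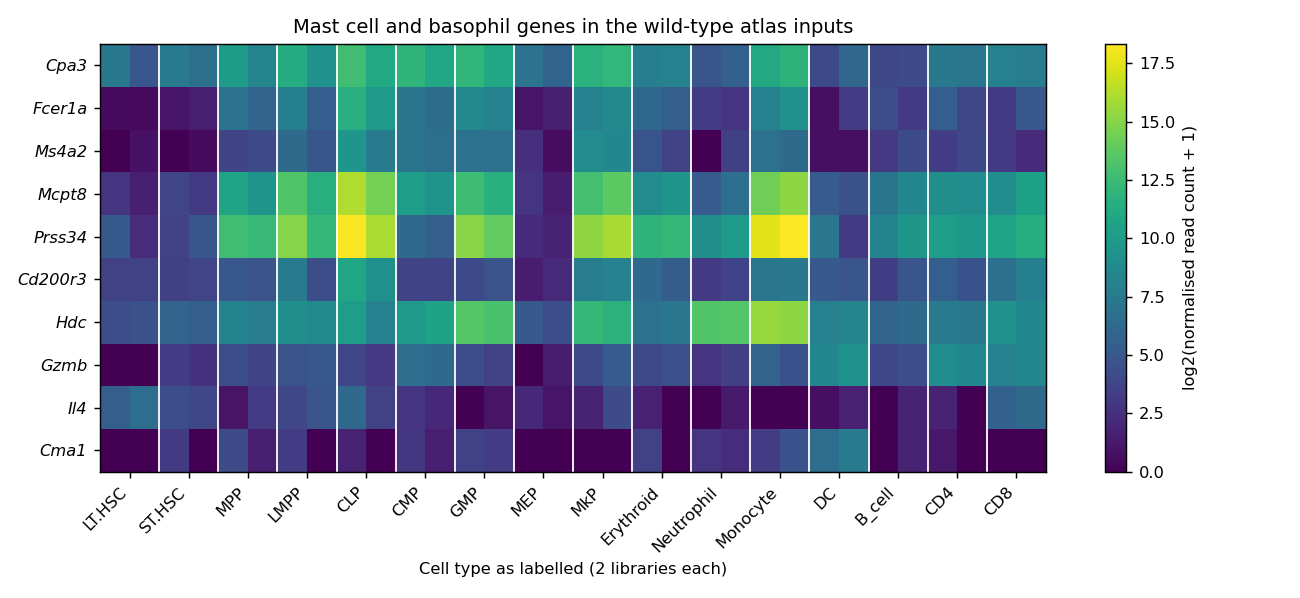
Heat map of log2(normalised read count + 1) for the 10 members (rows) in the 32 atlas inputs (columns, 2 libraries for each of 16 cell types as labelled). The upper 6 rows share high values in CLP and MkP and low values in MEP and LT.HSC. Values in Monocyte are raised by the scaling, with 1 read worth 7.97 and 11.6. Prss34 is low in CMP (76.5 and 46.4), and Gzmb is brightest in DC and in the libraries labelled CD4 and CD8.

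The deposited scaling multiplies reads in some libraries far more than in others, since 1 read is worth 0.412 to 11.6 in the atlas inputs. It is worth most in Monocyte, 7.97 and 11.6. In RPM, Monocyte had 3.26 and 5.30 of Fcer1a, 1.44 and 0.714 of Ms4a2, 1.72 and 1.43 of Cd200r3 and 25.8 and 31.8 of Cpa3. MkP had 24.4 and 27.0, 41.6 and 25.1, 18.7 and 18.5, and 301 and 305 in the same order. Prss34 (2328 and 2893) and Mcpt8 (254 and 330) stayed high in Monocyte. On RPM, CLP led all of Cpa3, Fcer1a, Ms4a2, Mcpt8, Prss34 and Cd200r3, and Hdc was led by GMP (455 and 626), with Neutrophil (509 and 521) and Monocyte (551 and 341) overlapping it. The summed level of those 6 genes, a group picked after their values were seen, was 8430 and 31542 RPM in CLP, 4611 to 5495 in MkP, 2615 to 3262 in Monocyte, 1513 to 1793 in GMP and 6.04 to 12.7 in MEP. Most of it was Prss34 in CLP (5988 and 24495 in that order), MkP (3570 and 4208), Monocyte (2328 and 2893) and GMP (1351 and 1114). In CMP (301 and 203) and MEP (11.1 and 5.11) most of it was Cpa3. Markers of other cells were also read in these libraries. The Neutrophil libraries had 108249 to 111273 RPM over the neutrophil markers, with a sum of the 6 genes of 32.4 to 56.2. CMP had 21274 to 33787 over the granulocyte progenitor markers, with a sum of the 6 genes of 308 to 418, and CLP had 1944 to 2074 over these markers. The CLP libraries had 9151 to 25662 RPM over the 8 monocyte markers, 3356 to 3945 over 6 plasmacytoid dendritic markers and 1163 to 4300 over the 9 neutrophil markers. They had 95.6 and 154 of the lymphoid receptor gene Il7r, 344 and 518 of Dntt and 101 and 60.9 of Flt3, as single genes. The MkP libraries had 2789 to 3290 over 6 eosinophil markers, mostly Prg2, and 51740 and 29972 of the granulocyte progenitor gene Mpo, beside 1476 and 5164 of the platelet gene Pf4. The MEP libraries had 3.99 to 4.57 over the eosinophil markers. The part of these cells in the members' levels was not tested.

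Across the 16 type means of log2(value + 1), the 15 pairs among Cpa3, Fcer1a, Ms4a2, Mcpt8, Prss34 and Cd200r3 had Pearson correlations of 0.591 to 0.966, with a median of 0.812. Those of Hdc with these 6 genes were 0.386 to 0.683, those of Gzmb 0.070 to 0.334, those of Il4 −0.117 to 0.289 and those of Cma1 −0.072 to 0.062. All points share libraries, depth and scaling, so the values are descriptions. Among all genes tested, the 3 most like Fcer1a were Mcpt8 (0.966), Ms4a2 (0.959) and Prss34 (0.889). Prss34 was most like Mcpt8 (0.939), Fcer1a (0.889) and Prg2 (0.889), which encodes the major basic protein of eosinophil granules. Cpa3 was most like Ms4a2 (0.872), Fcer1a (0.871) and Csrp3 (0.814), and Cd200r3 most like Arl6ip1 (0.819), Mcpt8 (0.803) and Prss34 (0.801). The other members had likest genes outside the list. For Hdc they were Cldn15 (0.968) and the myeloid receptor genes Trem3 (0.963) and Clec5a (0.962). For Gzmb they were Lpxn (0.837), Phf11a (0.834) and Klrk1 (0.833), the receptor NKG2D of killer lymphocytes. For Il4 they were Gnai1 (0.841), Padi1 (0.813) and Cep112 (0.811), and for Cma1 Fam149a (0.877), Ppt1 (0.832) and Nlrp1c-ps (0.790).

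CMP was compared with MPP, the multipotent progenitor before it, to see which members differ at the entry to the myeloid branch. Hdc and Gzmb were higher in CMP and Prss34 was lower. Hdc had normalised read counts of 938 and 1520 in CMP, against 289 and 209 in MPP, a log2 difference of 2.28 (SE 0.44, limma adjusted p = 0.00241). Gzmb had 94.0 and 75.4 in CMP, against 20.6 and 12.8 in MPP (2.30, SE 0.59, adjusted p = 0.0272). Prss34 had 76.5 and 46.4 in CMP, against 6804 and 5428 in MPP (−6.65, SE 1.13, adjusted p = 0.00151). CMP and MPP did not overlap for these genes. Ms4a2 (2.86, adjusted p = 0.0873) and Cpa3 (2.17, adjusted p = 0.205) missed the threshold, and Mcpt8 differed by −0.24. So 2 of 10 members were called higher and 1 lower, where 0.664% of all genes were called higher and 2.44% lower. The median over the members was 0.35, beside −0.06 over all genes. Of 6 eosinophil markers, 2 fell with Prss34, and their sum was 7.73 to 19.3 RPM in CMP, against 80.8 to 374 in MPP. All 6 plasmacytoid dendritic markers fell (median −3.45), as did 5 of 9 neutrophil markers (median −3.01) and 3 of 8 T cell markers, while 3 of 8 monocyte, 3 of 8 megakaryocyte and 3 of 6 granulocyte progenitor markers rose. The part of these cells in the members' differences was not tested. The Hdc call was lost without CMP 2 (adjusted p = 0.0682) or MPP 2 (0.0640), and the Gzmb call without any single library of the pair of types (0.0720 to 0.329) and on RPM (0.0632).

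Going on to GMP, Prss34 and Hdc were higher and Gzmb was lower than in CMP. Prss34 had 33789 and 15500 in GMP, against 76.5 and 46.4 in CMP (8.56, SE 1.13, adjusted p = 7.32e-05). Hdc had 11386 and 8711 in GMP, against 938 and 1520 in CMP (3.06, SE 0.44, adjusted p = 5.03e-05). Gzmb had 19.6 and 11.01 in GMP, against 94.0 and 75.4 in CMP (−2.44, SE 0.59, adjusted p = 0.0128). Mcpt8 missed the threshold (2.27, adjusted p = 0.0838), and Cpa3 (0.05) and Ms4a2 (0.01) had values close to those of CMP, with SEs of 0.79 and 0.88. Thus 2 members were called higher, beside 1.54% of all genes, and 1 lower, beside 3.44%, and the members' median was 0.89 beside −0.03. Of the 6 eosinophil markers, 3 rose, with a sum of 1066 to 1815 RPM in GMP, against 7.73 to 19.3 in CMP. All 6 granulocyte progenitor markers rose as well, and 5 of 7 erythroid and 6 of 8 megakaryocyte markers fell. The part of these cells in the members' difference was not tested. Of the genes that accompany them, the granule protease Ctsg (2.80) and the granule membrane gene Cd63 (2.54) rose in GMP, 2 of 6 granule genes tested, and the monoamine transporter Slc18a2 fell (−1.93). Of 12 genes of IgE receptor signalling, the kinase Fyn (−4.25) and the adaptor Lat (−3.47) fell. Of 12 other receptor genes, the integrin chains Itga2 (−3.59) and Itgb7 (−2.83) and the interleukin 18 receptor Il18r1 (−1.71) fell, and of 6 mediator genes the leukotriene synthase Ltc4s (−2.80). None of these 3 lists had a gene that rose. Of 9 transcription factors, 5 fell and none rose, with Zfpm1 at −4.56, Gata1 at −3.92, Gata2 at −2.61 and Tal1 at −2.20. Scaling to RPM moved the median of all genes to −0.69 and gave 117 genes higher and 1958 lower, against 264 and 590 on the deposited scale, with the same counts of members. The Gzmb call was lost without CMP 1 (adjusted p = 0.110), CMP 2 (0.0669) or GMP 2 (0.142).

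On the other side of the branch, 7 of the 10 members fell in MEP, the megakaryocyte erythroid progenitor, and none rose, where 11.7% of all genes were called lower and 5.63% higher than in CMP. Mcpt8 had 5.84 and 1.58 in MEP, against 1193 and 728 in CMP (−7.80, SE 0.73, adjusted p = 4.48e-08). Hdc had 34.5 and 20.0 in MEP, against 938 and 1520 in CMP (−5.45, SE 0.44, adjusted p = 8.72e-10). Gzmb (−5.73), Fcer1a (−5.49), Ms4a2 (−5.27), Cpa3 (−5.02) and Prss34 (−3.87, SE 1.13, adjusted p = 0.022) fell too. Cd200r3 (−1.94, adjusted p = 0.067), Cma1 (−2.24) and Il4 (−0.87) missed the threshold. The members' median was −5.14, beside −0.04 over all genes. Of 12 genes of IgE receptor signalling, 10 fell and none rose, among them Fcer1g, the shared gamma chain (−6.05), the adaptor Lat2 (−4.55), the phospholipase Plcg2 (−4.46) and the kinase Syk (−2.60). Of 12 other receptor genes tested, 8 fell, led by Csf2rb (−6.61), the signalling chain of the interleukin 3 receptor, and Cd200r4 (−4.74), and Il1rl1, the interleukin 33 receptor, rose (1.58). Of the 9 transcription factors, Cebpa (−5.14) and Runx1 (−1.67) fell and Gata1 (1.88) and Tal1 (1.505) rose. Markers of other cells moved alongside. All 8 monocyte markers fell (median −7.00), with a sum of 10.1 to 14.001 RPM in MEP, against 1436 to 1756 in CMP, and all 6 granulocyte progenitor markers fell (median −7.56), with 241 to 284 RPM in MEP, against 21274 to 33787 in CMP. Of 8 megakaryocyte markers 5 fell, and all 7 erythroid markers rose. The part of these cells in the members' difference was not tested. The Prss34 call was lost without any single library of either type (adjusted p 0.0610 to 0.141) and with a pseudocount of 10 (0.101).

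MkP, the megakaryocyte progenitor, was then compared with MEP. Prss34 had 39548 and 62164 in MkP, against 3.72 and 2.63 in MEP, a log2 difference of 13.55 (SE 1.13, adjusted p = 3.05e-08). Mcpt8 had 7254 and 13456 in MkP, against 5.84 and 1.58 in MEP (11.20, SE 0.73, adjusted p = 1.5e-10). Hdc (7.21), Ms4a2 (7.13), Fcer1a (7.02), Cd200r3 (6.10), Cpa3 (5.51) and Gzmb (4.02) were higher too, so that 8 of 10 members rose and none fell, beside 14.2% and 14.6% of all genes. Il4 (1.499, adjusted p = 0.303) did not pass, and Cma1 was listed at 0 in all 4 libraries. The members' median was 6.56, beside −0.08. Of the related lists, 9 of 12 genes of IgE receptor signalling rose, with Fcer1g at 5.29. Of 12 receptor genes, 8 rose and 1 fell, with Csf2rb at 5.77 and the histamine receptor gene Hrh4 at 4.53. Of 6 mediator genes, 5 rose, with Alox5ap of the leukotriene pathway at 5.36. Cebpa (4.62) and Gata2 (3.15) rose and Gata1 (−1.36) fell. Both counts of members stayed at 8 and 0 without any single library of these types. Markers of eosinophils and of granulocyte progenitors were also far higher in these MkP libraries than in MEP, with 2789 to 3290 against 3.99 to 4.57 and 49452 to 69291 against 241 to 284 RPM. All 9 neutrophil markers (median 9.04), all 8 monocyte markers (5.47) and 7 of 8 megakaryocyte markers (7.05) rose too. Of 7 erythroid markers 6 fell, as did 3 of 8 T cell markers. The part of all these cells in the members' difference was not tested.

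Prss34 and Mcpt8, both basophil proteases, kept different proportions in CMP. The CMP inputs held 92 and 72 reads of Prss34 and 1434 and 1129 reads of Mcpt8, or 0.0642 and 0.0638 Prss34 reads per Mcpt8 read. In 28 other atlas inputs with at least 10 Mcpt8 reads the ratio was 0.344 to 14.7, with a median of 3.96. The CMP pair thus lay below every other atlas input that could be measured. In the atlas IP the ratio was 0.0134 and 0.0154 in CMP and 0.0645 to 2.00 in 28 other libraries. In the Mettl3 set the knockout CMP inputs had 0.0296 and 0.442 and the wild-type ones 0.0451 and 0.0909, within the 0.0286 to 7.53 of the other types. A ratio of reads within a library does not depend on its scaling, and the pattern was picked after the values were seen, so no test is given.

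**Figure D2:**
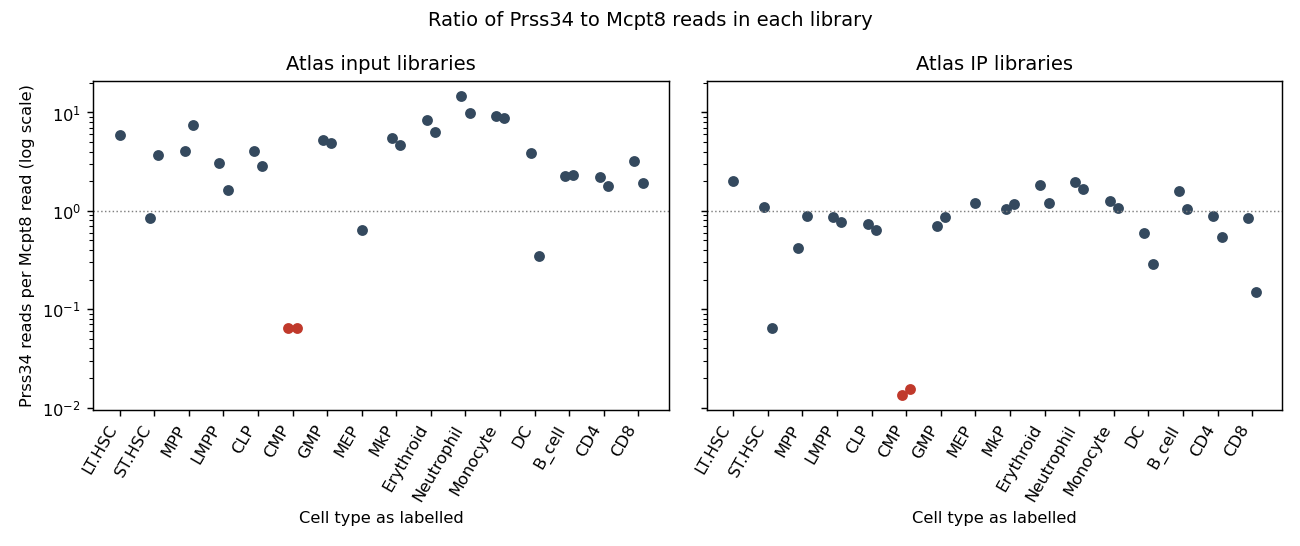
Prss34 reads per Mcpt8 read (log scale) in each atlas library with at least 10 Mcpt8 reads, by cell type as labelled, in inputs (left) and IP (right), with a dotted line at equal reads. The CMP points (red) lie lowest, at 0.0642 and 0.0638 in the inputs and 0.0134 and 0.0154 in the IP.

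Enrichment for m6A was computed as the IP level of a gene less its input level, both on the log2 scale. Since IP and input were scaled separately, only differences between types were tested, and the level within a type is given as a percentile among all genes of that type, where the input level was at least 10. Prss34 stood low in most types, and Hdc in some. Hdc was at percentile 0.445 in GMP, 0.823 in CMP and 1.78 in MkP, and below the 10th in 6 of 16 types, but at 54.4 in ST.HSC and 77.0 in LT.HSC. Its enrichment was −2.40 in GMP and 1.45 in LT.HSC, and it differed among the 16 types (F test, limma adjusted p = 0.00284). Prss34 was below the 10th percentile in 9 of 15 types, at 1.12 in Monocyte, 1.49 in GMP, 1.93 in MPP and 2.15 in CLP, with a median of 7.59. The median of Hdc was 25.1 over 16 types. Mcpt8 had a median percentile of 49.9 over 14 types, Fcer1a 48.8 over 11, Ms4a2 61.5 over 10, Cd200r3 50.9 over 15, Cpa3 33.7 over 16, Gzmb 24.9 over 12, Il4 19.2 over 5 and Cma1 19.2 over 3. With Hdc, Il4 (adjusted p = 0.00226) and Fcer1a (0.0221) made 3 members called, beside 25.1% of all genes. Il4 reached an input level of 10 in only 5 types, and the Fcer1a call was lost with a pseudocount of 10 (adjusted p = 0.123). The Fcer1a IP counts in the types where its percentile was lowest, those labelled CD4, B_cell and CD8, were 6 or fewer. The enrichment of a gene read by few counts is imprecise.

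**Figure D3:**
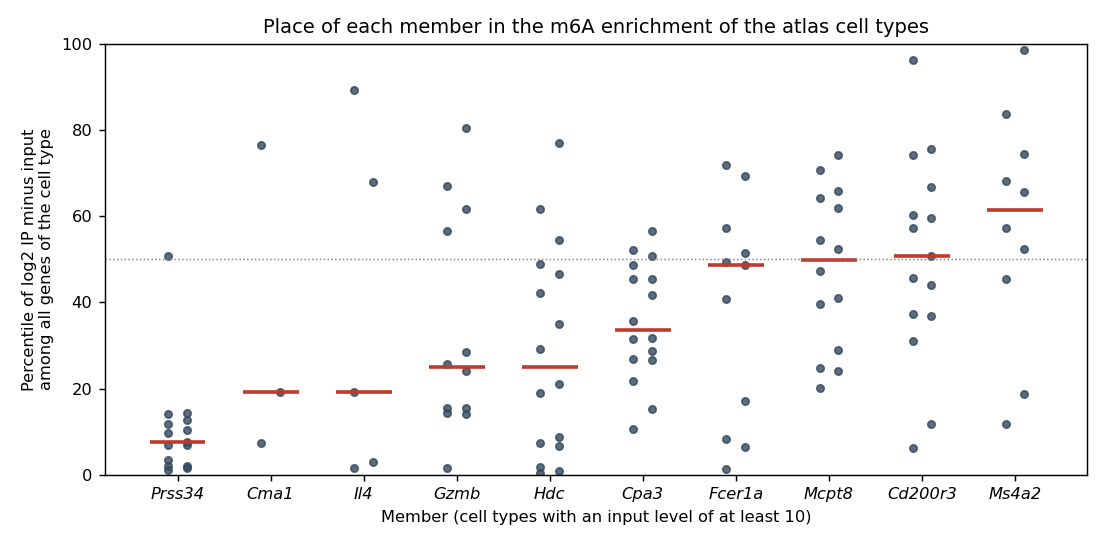
Percentile of each member's log2 IP minus log2 input among all genes of the cell type (points, atlas cell types with an input level of at least 10), with the member's median as a red bar and a dotted line at the 50th percentile. Prss34 has the lowest median of the 10 members, 7.59, and Hdc reaches 0.445 in GMP and 77.0 in LT.HSC.

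The Mettl3 inputs are the contrast that chose the members, so their values there are a description and no count of members called is given. Of all genes, 7.24% were called higher and 2.89% lower on the mean over 7 types. The values by library show where each gene moved. Gzmb had normalised read counts of 8.17 to 236 in the 14 knockout libraries (median 86.2) and 0 to 38.2 in the 14 wild-type ones (median 1.09). In MkP it had 81.8 and 236 in the knockout, against 0 and 0.404 in the wild type, and in LT.HSC 62.5 and 145, against 0 and 0.688. Both knockout libraries lay above both wild-type ones in 6 of 7 types, and 12 of 14 knockout libraries lay above every wild-type one. GMP was the exception, with 30.7 and 8.17 against 16.2 and 38.2.

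Of the receptor genes, Cd200r3 had 38.9 and 206 in knockout LT.HSC, against 3.67 and 4.47 in the wild type, and 29.5 and 29.9 in knockout MEP, against 0 and 1.05. Its groups did not overlap in 6 of 7 types, and MkP overlapped, with 0 and 52.3 against 9.61 and 0.404. Fcer1a had 227 and 1314 in knockout MkP, against 50.6 and 127 in the wild type, and 81.2 and 179.6 in knockout MEP, against 0 and 9.48. It overlapped in GMP, with 69.7 and 397 against 99.8 and 286, and in no other type. Ms4a2, the beta chain of the same receptor, overlapped in 6 of 7 types. Its knockout libraries had 3.34 to 312 (median 37.8) and the wild-type ones 0 to 708 (median 23.5).

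Among the granule enzymes, Cpa3 had 188 and 238 in knockout LT.HSC, against 16.5 and 73.6 in the wild type, and 313 and 209 in knockout MEP, against 33.2 and 43.2. It did not overlap in 4 types and overlapped in MPP, GMP and MkP. Hdc did not overlap in 5 types, and in MkP it had 29.6 and 529 in the knockout, against 203 and 569. Mcpt8 overlapped in 5 types and Prss34 in all 7. For Prss34 the highest libraries were knockout GMP 2 (12101) and knockout ST.HSC 1 (11966), while the other knockout ST.HSC library had 8.53 and the wild-type ones 0.349 and 10.9. The same ST.HSC 1 library had 1590 of Mcpt8 and 1340 of Hdc, against 17.5 and 59.7 in its partner. Cma1 overlapped in all types and reached 47.9 in knockout and 69.7 in wild-type libraries, both in GMP. Il4 had 48.4 and 48.7 in knockout LT.HSC, against 11.02 and 36.8, and did not overlap in 3 types.

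By cell type, the members with both knockout libraries above both wild-type ones numbered 5 in LT.HSC (18.4% of all genes), 6 in ST.HSC (16.2%), 5 in MPP (20.6%), 6 in CMP (11.6%), 2 in GMP (12.3%), 6 in MEP (18.1%) and 3 in MkP (20.7%). On the deposited scale no member had both knockout libraries below, where 22.2% of all genes did so in LT.HSC, 16.7% in ST.HSC, 26.5% in MPP, 14.2% in CMP, 12% in GMP, 14% in MEP and 20.1% in MkP. Scaled to RPM, Gzmb, Cd200r3 and Fcer1a again did not overlap in 6 types each, while Hdc did so in 3, Cpa3 in 2 and Il4 in 1, against 5, 4 and 3 on the deposited scale. On RPM, Prss34 lay below in MPP, with 18.4 and 33.0 in the knockout, against 99.7 and 41.7 in the wild type. Signs of other cells moved in the same contrast. Of 9 neutrophil markers, 4 were called higher, and their sum was 8.17 to 3589 RPM in the knockout (median 193) and 3.68 to 939 in the wild type (median 43.5). Of 8 monocyte markers, 3 were called higher. Of the 7 NK and cytotoxic and 8 T cell markers none was called, with T cell sums of 1.41 to 49.9 in the knockout and 0.847 to 21.8 in the wild type. The defining markers were not all at 0: Ncr1, an NK receptor gene, was above 0 in 6 libraries of each genotype, and Klk1 of the plasmacytoid dendritic list was at 0 in all 28. The 6-gene sum was 31.8 to 2012 (median 198) in the knockout and 7.77 to 919 (median 130) in the wild type. The part of these cells in the members' values was not tested.

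**Figure D4:**
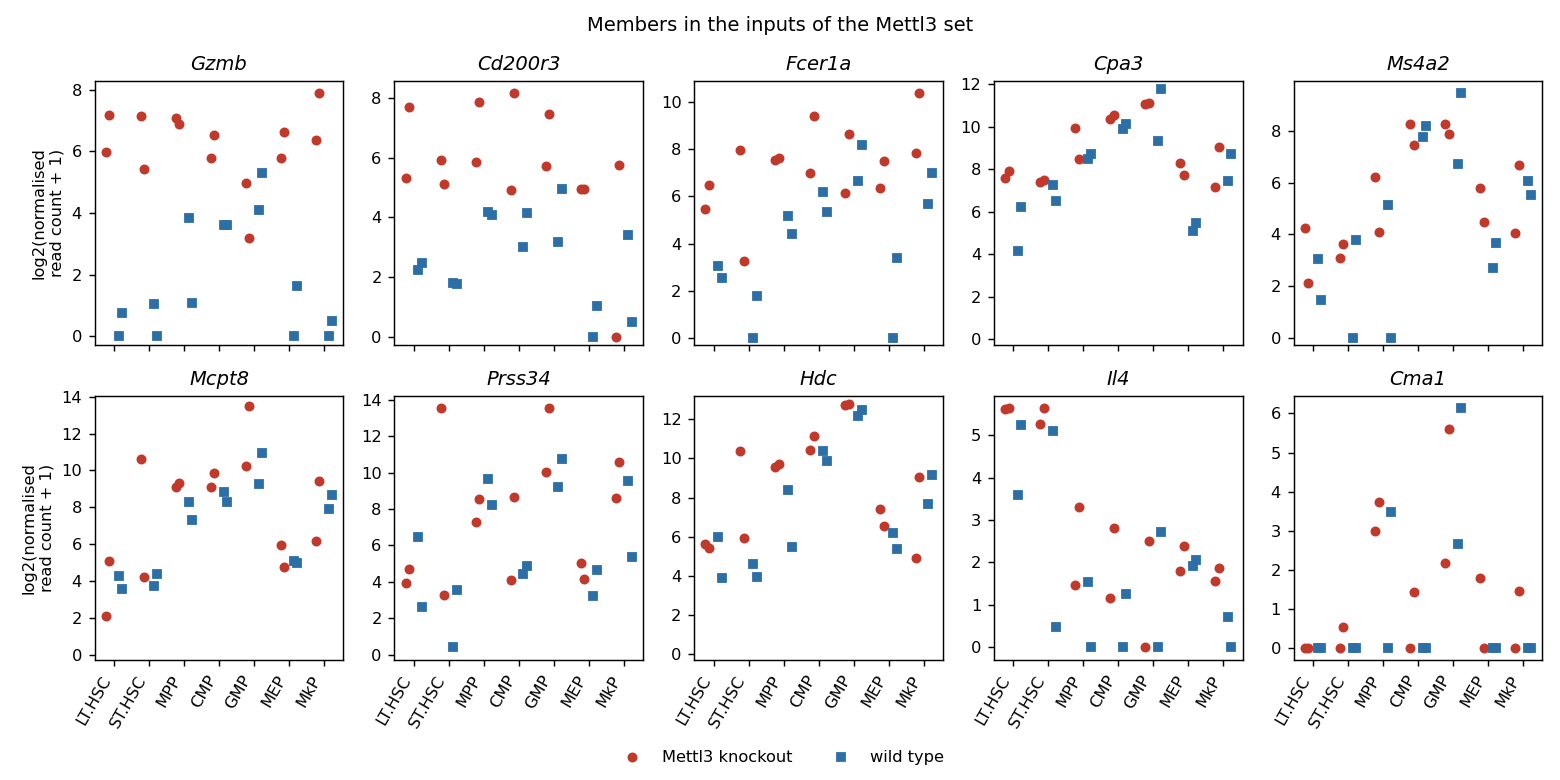
log2(normalised read count + 1) of the 10 members in the 28 Mettl3 inputs, with 2 knockout (red circles, left) and 2 wild-type libraries (blue squares, right) for each of 7 cell types. The genotypes are apart in 6 types for Gzmb, Cd200r3 and Fcer1a, with GMP (Gzmb, Fcer1a) or MkP (Cd200r3) as the exception, and overlap in all 7 for Prss34 and Cma1.

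Genes of the same pathways, taken from lists made by function with earlier results of these data known, were tested in this contrast. Of 11 receptor genes tested, 5 rose and 1 fell. Csf2rb2 (2.18, SE 0.46, limma adjusted p = 0.00344) and Csf2rb (2.11, SE 0.30, adjusted p = 0.000112) rose. Csf2rb encodes the common beta chain of the interleukin 3, interleukin 5 and GM-CSF receptors, and Csf2rb2 a mouse beta chain for interleukin 3 alone. Csf2rb had 801 ± 505 normalised reads in the knockout and 261 ± 216 in the wild type (SD, n = 14 each). Cd200r4, a relative of Cd200r3, rose (2.06), and Il18r1 fell (−1.64, adjusted p = 0.0406). Of 12 genes of IgE receptor signalling, 3 rose, the adaptors Lat2 (1.29), Lcp2 (0.82) and Lat (0.77), and none fell. Of 6 granule genes Cd63 rose (1.39, adjusted p = 0.000377), and of 5 mediator genes Alox5ap rose (0.90). None of 9 transcription factors was called in either direction. Other granule proteases were hardly read: Tpsg1, Mcpt1 and Mcpt9 were listed at 0 in all 28 inputs, and Tpsb2, a mast cell tryptase, reached 31.4 in knockout and 30.5 in wild-type libraries. Mcpt4, a chymase of connective tissue mast cells, reached 0.886 in knockout and 2.26 in wild-type libraries. No gene of these lists was called lower by edgeR on the recovered reads or with no filter on low values.

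In the Mettl3 IP libraries, which hold the RNA pulled down by the m6A antibody, Fcer1a was the member that passed. It had 91.6 and 158 CPM (counts scaled to the library's total) in knockout MkP, against 0 and 0.338 in the wild type. In MEP it had 39.1 and 22.3 in the knockout, against 0.654 and 0.833. Both knockout libraries lay above both wild-type ones in 5 of 7 types, and GMP overlapped with 0.198 and 53.6 against 19.0 and 20.4. Its mean log2 difference over the 7 types was 4.06 (edgeR quasi-likelihood test, adjusted p = 0.00833). It was the only one of 10 members called, beside 0.441% of all genes called higher and 0.155% lower. The call held without any single library. IP counts were not set against input in this test, so it does not measure m6A enrichment. The Fcer1a inputs were also higher in knockout MkP (normalised read counts of 227 and 1314, against 50.6 and 127). So were those in knockout MEP (81.2 and 179.6, against 0 and 9.48). The labels do not say whether IP and input came from the same RNA, so the IP call is no independent support for the inputs.

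Gzmb had 21.0 and 21.0 CPM in knockout MkP IP, against 0 and 0.225 in the wild type, and 11.5 and 9.74 in knockout ST.HSC, against 0 and 0. Its log2 difference of 4.59 missed the threshold (edgeR adjusted p = 0.0735), but was called by DESeq2 (0.0193), with no filter (0.00122) and in most fits that left out 1 library. Il4 had 13.9 and 11.003 in knockout LT.HSC, against 0 and 0 in the wild type (3.43 over all types, adjusted p = 0.0881), and did not overlap in 5 types. Among these, its values were near 0 in MEP, with 1.22 and 0.474 in the knockout, against 0.0873 and 0.416. They were near 0 in MkP too, with 0.185 and 0.816, against 0 and 0. Cd200r3 differed by 2.61 (adjusted p = 0.201) and Prss34 by 2.36 (adjusted p = 0.400). For Prss34 the knockout ST.HSC 1 library had 510 CPM and its partner 0.168. Cpa3 (0.48), Ms4a2 (0.81), Mcpt8 (0.44), Hdc (0.37) and Cma1 (1.35) had adjusted p of 0.895 or more. By type, the members with both knockout libraries above both wild-type ones were 3 in LT.HSC (38.7% of all genes), 7 in ST.HSC (35.2%), 2 in MPP (9.32%), 1 in CMP (8.1%), 0 in GMP (4.98%), 5 in MEP (12.3%) and 4 in MkP (22.0%). Those with both below were 2 in CMP (20.4%), 2 in GMP (21.5%) and 0 in LT.HSC (0.456%), ST.HSC (0.48%), MPP (24.7%), MEP (29%) and MkP (9.38%). Of the related genes, Csf2rb2 (3.36), Csf2rb (2.45) and Cd63 (1.59) rose in the IP as well. Knockout MEP 1 held 0.819 M counts, and wild-type LT.HSC 1 and ST.HSC 1 had 94.2% and 75.8% of theirs in 10 genes. Without these 3 libraries Fcer1a and Gzmb were called.

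**Figure D5:**
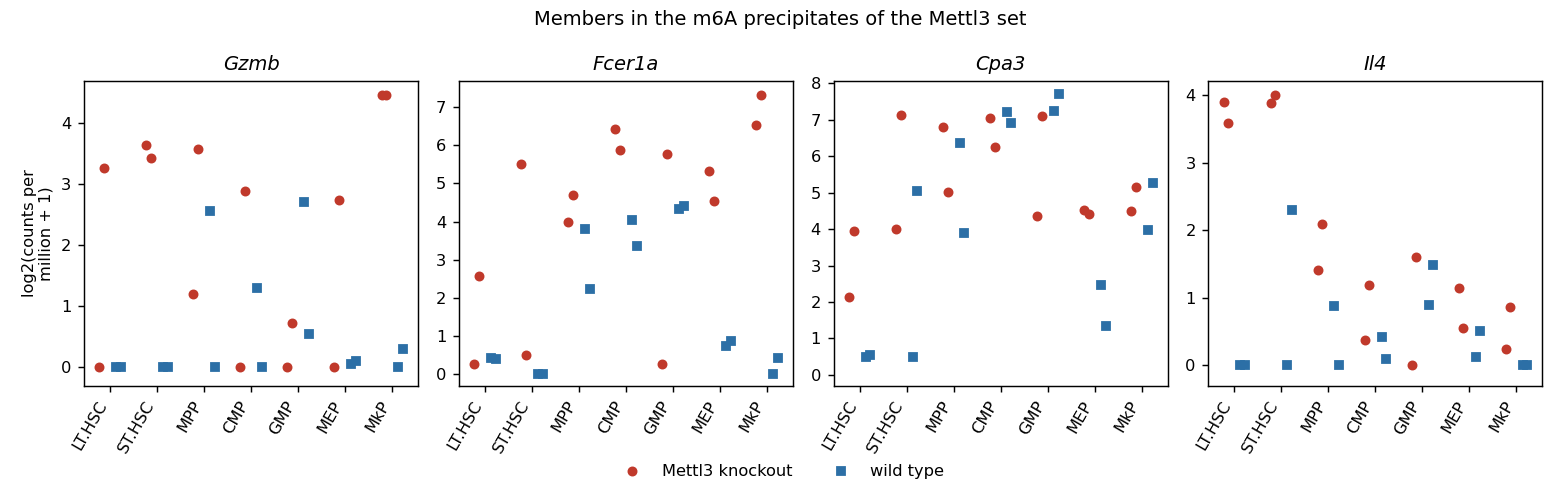
log2(CPM + 1) of Gzmb, Fcer1a, Cpa3 and Il4 in the 28 Mettl3 IP libraries, drawn as for the inputs with knockout (red circles) left of wild type (blue squares). Fcer1a is apart in 5 types, Il4 in 5 (in MEP and MkP at 1.22 CPM or less), Gzmb in 2, and Cpa3 is above the wild type in LT.HSC and MEP and below it in GMP.

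The Igf2bp2 set asked whether loss of this m6A reader touches the members in LT.HSC. Only Prss34, Hdc, Il4, Cpa3 and Cd200r3 had enough counts to be tested, and none was called, beside 0.0% of all genes (edgeR, with 777 genes at an unadjusted p under 0.05 and 94 called by DESeq2). No member had an unadjusted p under 0.05. Hdc had 135 and 264 counts in the knockout, against 374 and 11 in the wild type (log2 2.07, adjusted p = 0.836). Il4 had 2 and 167 in the knockout, against 88 and 27 (1.56, adjusted p = 0.965). Prss34 had 109 and 143 in the knockout, against 342 and 94, or 23.3 and 22.0 against 17.1 and 19.1 CPM (0.71, adjusted p = 0.968). Cpa3 had 1 and 64 in the knockout, against 75 and 8. Cd200r3 had 8 and 24 in the knockout, against 118 and 28 (−0.79, adjusted p = 0.978). In CPM, Hdc had 28.8 and 40.7 in the knockout, against 18.7 and 2.24, and Cd200r3 had 1.71 and 3.70, against 5.90 and 5.69. Il4 had 0.427 and 25.7 CPM in the knockout, against 4.40 and 5.49, and Cpa3 had 0.214 and 9.85, against 3.75 and 1.63. With 2 libraries per genotype these values are a description only. Gzmb and Cma1 were listed at 0 in all 4 libraries, Fcer1a had 1 count in all, and Mcpt8 had 52 and 5 in the knockout, against 10 and 2.

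SLAM-seq gave the T-to-C percent of each gene after 3 h of labelling in 6 wild-type types, and the depth behind it is unknown. Of the 7 members above 0 in at least 6 libraries, none was called over the 6 types, beside 0.0% of all genes (limma, with 1695 genes at an unadjusted p under 0.05, among them Hdc, Gzmb and Ms4a2). Hdc had 1.79% and 0.550% in LT.HSC, 1.03% and 1.20% in ST.HSC, 1.37% and 1.81% in MPP, 0.530% and 0.610% in CMP, 0.0310% and 0.0684% in GMP and 0.0390% and 0.200% in MEP. GMP and MEP lay below every other library (adjusted p = 0.254). Gzmb had 2.83% and 4.89% in MPP, 2.64% and 3.91% in ST.HSC and 1.55% and 3.73% in CMP, and was listed at 0 in both MEP libraries (adjusted p = 0.274). Ms4a2 had 2.18% and 1.73% in CMP and 1.26% and 3.462% in MPP, with 0 in LT.HSC and MEP (adjusted p = 0.315). Prss34 stayed at 0.0918% or less in every library, including GMP with 0.0104% and 0.00393%. Fcer1a stayed at 0.0219% or less, in too few libraries to be tested. Mcpt8 ranged to 2.83%, in CMP 1, and its 2 MEP libraries were listed at 0.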

How the data were processed

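Members and gene lists were chosen with earlier results of these data known. The authors deposited raw read counts per gene for the atlas IP and the Igf2bp2 set, estimated counts for the Mettl3 IP (rounded here), and a normalised input signal, gene counts divided by a size factor of the library, for the atlas and Mettl3 inputs. The authors deposited T-to-C ratios as a fraction, printed here as percent. fastp, Trimmomatic, kallisto and GRCm38 are named per the submitters' processing notes, without versions. In the inputs, 100% of values were whole multiples of the value of 1 read, within 0.1 of a read. edgeR on the recovered reads of the Mettl3 inputs called 1091 genes higher and 395 lower.

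For the inputs, limma 3.58.1 (R 4.3.3) was fitted to log2(value + 1) of genes at 10 or more in at least 2 libraries. Fold changes on this scale understate the change of low genes. The IP and Igf2bp2 counts were tested with edgeR 4.0.16 (quasi-likelihood, TMM, its own expression filter), and DESeq2 1.42.0 was an alternative. The T-to-C percent after labelling was tested with limma on log2(percent + 0.1), among genes above 0 in at least 6 libraries. P-values were Benjamini-Hochberg adjusted over all genes tested, with a threshold of 0.05. All contrasts of a table shared 1 fit over its groups, and the scripts were tested on simulated data. The rule for named genes was the members, their 3 likest genes, and up to 4 called genes of each related list in the Mettl3 inputs. Those named in other contrasts were chosen after their values were seen. The sources used here do not state strand or how near-identical genes were counted, and reads of close relatives, such as Csf2rb with Csf2rb2, Cd200r3 with Cd200r4 and the proteases on chromosome 14, could have been split between them. Protein sequences were not used here.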

Additional observations from a re-analysis of the deposited data

Results flagged for a closer look

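In the Mettl3 IP, Cpa3 moved in opposite directions in a pair of cell types. Both knockout GMP libraries (19.7 and 137 CPM) lay below both wild-type ones (151 and 208), a log2 difference of −1.74. In MEP both knockout libraries (22.0 and 20.4) lay above the wild-type ones (4.49 and 1.53), a log2 difference of 2.57. Ms4a2 did so as well, with −1.50 in CMP, where the knockout libraries (2.80 and 8.04 CPM) lay below the wild-type ones (10.8 and 22.3). In MEP it differed by 0.72, with 1.22 and 1.42 in the knockout, against 0 and 0.971. These MEP values are near 0, and knockout MEP 1 held 0.819 M counts. Over all genes, both knockout libraries lay below in 20.4% in CMP and 21.5% in GMP, and above in 12.3% in MEP. The difference between the cell types was not tested for either gene.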

How the results depend on the processing

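Counts of called genes moved most in the small contrasts. For CMP against MPP, 114 genes were higher and 419 lower, with 197 higher at a pseudocount of 10, 181 by edgeR on recovered reads, and 645 lower and 1 member higher on RPM. For GMP against CMP, RPM gave 117 higher and 1958 lower, in place of 264 and 590. In the Mettl3 inputs (1088 higher, 434 lower), no related gene was lower with no filter, by edgeR or without LT.HSC (0 in each), and 199 genes were lower without LT.HSC. In the Mettl3 IP (77 higher, 27 lower), DESeq2 gave 662 and 200 with 5 members higher, no filter 295 and 144 with 3, and leaving out the 3 doubtful libraries 196 higher with 2. In the Igf2bp2 set, with 0 called, DESeq2 gave 56 and 38 and no filter 36 and 8. New RNA, with 0 called, gave 12 at a pseudocount of 1 and 73 with no filter. Same-numbered replicates correlated at −0.107 to 0.344 in their deviations from group means and were not taken as pairs. With the replicate block, 8 genes were higher in the Igf2bp2 set, Cpa3 there turned to −0.073, and no count of members called changed. Other reversals were of uncalled values: GMP against CMP, Cd200r3 (−0.00911), Cpa3 (−0.69) and Ms4a2 (−0.726) on RPM and Cpa3 (−0.025) and Ms4a2 (−0.071) by edgeR, and Mcpt8 in the Mettl3 IP without the doubtful libraries (−0.10). The causes were not tested. Leaving out 1 library gave, for CMP against MPP, 34 to 64 genes higher, 194 to 249 lower and 0 to 1 members higher. It gave 103 to 202 higher, 274 to 396 lower and 0 to 1 members lower for GMP against CMP, 455 to 772 higher for MEP against CMP and 1620 to 2234 lower for MkP against MEP. Enrichment gave 3439 to 6754 genes and 3 to 5 members, the Mettl3 inputs 221 to 1247 lower and 0 to 1 related genes lower, and the Mettl3 IP 82 to 270 higher, 34 to 154 lower and 1 to 4 members higher. New RNA gave 0 to 49. Values that changed sign were, for CMP against MPP, Fcer1a (−0.16 to 0.86), Mcpt8 (−0.84 to 0.35), Il4 (−0.76 to 1.44) and Cma1 (−2.05 to 0.71), and for GMP against CMP, Cpa3 (−0.49 to 0.59) and Ms4a2 (−0.22 to 0.23). In the Mettl3 IP they were Ms4a2 (−0.0068 to 1.90), Mcpt8 (−0.97 to 0.84) and Hdc (−0.38 to 1.33), and in the Igf2bp2 set Cpa3 (−3.01 to 2.02) and Il4 (−2.91 to 2.54). With 2 libraries per group and type, the lone sample left is assumed to vary like the other groups. Few reads limit members near 0, and the depth behind new RNA is unknown.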

Other observations

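Wild-type cells of 7 types were profiled both in the atlas and in the Mettl3 set, whose tables were normalised separately, so levels are given in RPM and were not tested across them. In MkP, Prss34 had 3570 and 4208 RPM in the atlas, and 90.7 and 5.20 in the wild type of the Mettl3 set. Mcpt8 had 655 and 911 there, and 29.6 and 52.2 in the Mettl3 set, and Cpa3 had 301 and 305, and 20.8 and 54.0. In GMP, Prss34 had 1351 and 1114 in the atlas and 48.2 and 190.04 in the wild type of the Mettl3 set. In CMP it was low in both, with 5.73 and 4.98 in the atlas and 2.35 and 3.71 in the Mettl3 set. The higher basophil protease levels of atlas MkP were thus not seen in the other wild-type MkP libraries. The 6 eosinophil markers summed to 2789 to 3290 RPM in atlas MkP, and to 3.04 to 15.4 in wild-type MkP of the Mettl3 set, and the granulocyte progenitor markers to 49452 to 69292 and 5718 to 5908. Their part in the members' levels was not tested.

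After 24 h of labelling, T-to-C percents were followed for 7 chase times in LT.HSC and MkP, as the authors' value per time without replicate values. In MkP, Prss34 had a value at all 7 times (0.0573% to 0.365%), Mcpt8 at 7 (0.0434% to 0.984%) and Cpa3 at 6 (0.192% to 0.853%). In LT.HSC the 7 members listed had a value at 1 to 4 times each, with Prss34 at 4 (0.0143% to 1.00%). The remaining times were blank, not listed at 0.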
